A study of Mus musculus with 4 samples.

Results

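Mast cell genes were followed in the mesothelium of mice, namely the granule proteases Cpa3, Cma1, Mcpt4, Tpsb2, Tpsab1 and Mcpt1, the receptor genes Kit, Ms4a2 and Fcer1a, and the histamine-forming enzyme gene Hdc. They were taken by symbol, as genes for which a probe of the platform annotation names that gene alone, and all 10 were measured among 19938 genes so named, each by 1 probe. RNA of adult Wt1-cre;Rosa26ReYFP mice on a c57bl/6 background was hybridized to 4 arrays, 2 with visceral mesothelium from the omentum and 2 with parietal mesothelium from the body wall. Both groups carried the same alleles and received no treatment. In these mice Cre driven by Wt1 switches on a yellow fluorescent reporter in mesothelial cells, but the RNA came from the dissected native tissue and no sort on the reporter is described. The comparison asked how the tissue of the 2 sites differs in mast cell transcripts. The study judged the isolated mesothelium by this reporter to be almost wholly mesothelial, which these arrays do not measure. In RNA of such pieces of tissue, more cells of a type and more RNA per cell cannot be told apart.

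Mast cells are tissue-resident immune cells that store histamine and proteases in granules bound to proteoglycan. Their growth depends on Kit, the receptor for stem cell factor, and antigen triggers them through IgE held by the high-affinity receptor, whose chains are encoded by Fcer1a, Ms4a2 and Fcer1g. Mouse mast cells are divided by their proteases: those of connective tissue, including the peritoneum, contain the chymases Mcpt4 and Cma1, tryptases and the carboxypeptidase Cpa3, whereas those of mucosal epithelia contain the chymases Mcpt1 and Mcpt2.

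Of the 5 protease genes of connective tissue mast cells, 4 were higher in visceral than in parietal mesothelium, by 3.45-fold (Cma1, whose parietal signal was under the level of genes these tissues should lack) to 24.8-fold (Cpa3), while the mucosal chymase gene Mcpt1 was at a low signal in both. Of the 10 genes, 7 were called higher in visceral mesothelium (Cpa3, Mcpt4, Tpsb2, Cma1, Hdc, Kit and Fcer1a), 0 were called higher in parietal mesothelium, and Tpsab1, Mcpt1 and Ms4a2 were not called. A gene was called when the adjusted p from limma, a linear model that shares information on the spread over all genes, was under 0.05 and the fold at least 1.5. Of all genes 9.6% were called, 5.22% with the excess in visceral and 4.39% with the excess in parietal mesothelium. Both visceral arrays lay above both parietal arrays for 8 of the 10 genes, against 28.9% of all genes, and Ms4a2 alone among the 10 had both below, against 27.4%. The median log2 difference, visceral minus parietal, was 1.64 over the 10 genes and 0.00 over all genes. Samples of each tissue are labelled as biological replicates but are not tied to animals. The p-values therefore cover only how these arrays vary, which may be technical, and 2 arrays a tissue limit the precision.

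**Figure D1:**
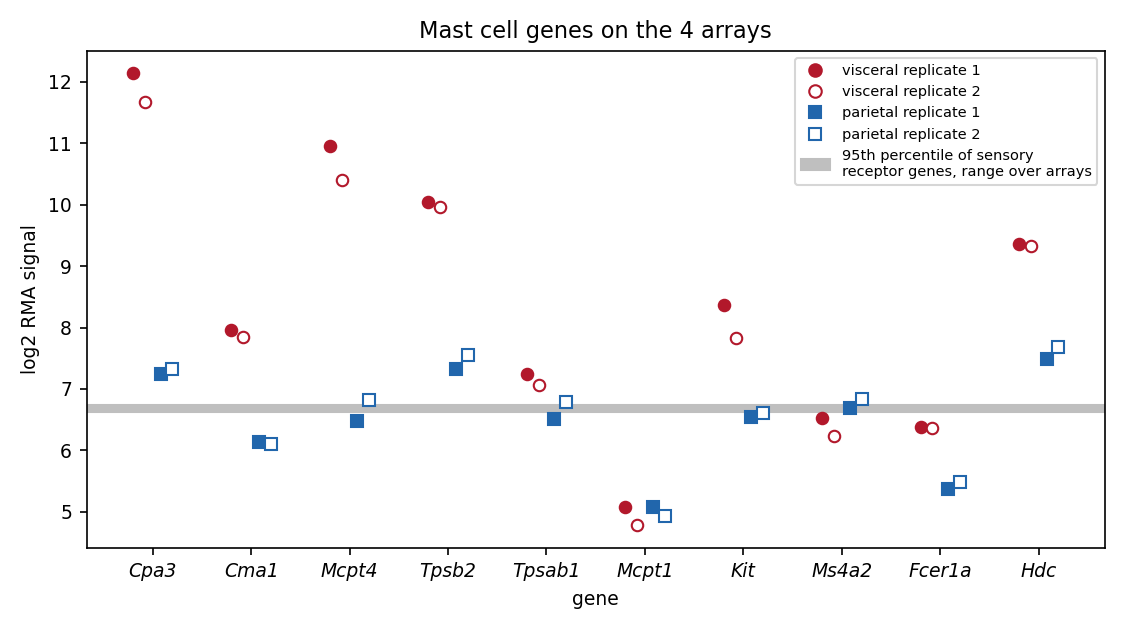
Log2 RMA signal (y axis) of the 10 mast cell genes (x axis), with a point for every array, visceral ones as circles, parietal ones as squares, filled for replicate 1 and open for replicate 2. The grey band is the range over arrays, 6.63 to 6.74, of the 95th percentile of sensory receptor genes; the visceral arrays of Cpa3 reach 12.14 and 11.68, and those of Mcpt1 stay at 5.07 and 4.78.

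As a guide to the signal of genes that these tissues should lack, 1194 olfactory and vomeronasal receptor genes were used, whose 95th percentile lay between 6.63 and 6.74 on the 4 arrays. Probes differ in brightness, so this level is no strict limit of detection. All 12 mesothelial markers lay above it on every array. Of these, 7 were called higher in parietal and 1 (Wt1) higher in visceral mesothelium, against 4.39% and 5.22% of all genes. All 10 skeletal muscle markers were called higher in parietal mesothelium, with a mean log2 signal of 12.36 and 12.71 on the parietal against 6.96 and 6.97 on the visceral arrays. The part of muscle RNA in the parietal values of the mast cell genes was not tested.

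The carboxypeptidase gene Cpa3 showed the largest difference of the 10. Its log2 signal was 12.14 and 11.68 on the visceral arrays and 7.24 and 7.32 on the parietal arrays. The tissues were thus far apart, by 4.63 ± 0.16 (SE) on the log2 scale or 24.8-fold (adjusted p = 8.79e-05 from limma), and Cpa3 ranked 3 of 19938 genes by its excess in visceral mesothelium.

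Mcpt4 encodes the main chymase of connective tissue mast cells. It was measured at 10.95 and 10.40 in visceral and at 6.48 and 6.82 in parietal mesothelium. Again the arrays did not overlap, and the difference of 4.02 ± 0.21 (SE), or 16.3-fold, ranked 9 among all genes (adjusted p = 0.000267 from limma). The parietal values lay at the level of the sensory receptor genes, 1 just above and 1 below it.

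Cma1, a chymase gene whose product cleaves elastin in the mouse, had signals of 7.96 and 7.85 in visceral and 6.13 and 6.10 in parietal mesothelium. Replicates differed by 0.11 or less here, against a difference between tissues of 1.78 ± 0.09 (SE), or 3.45-fold (adjusted p = 0.000209 from limma). Both parietal values were under the level of the sensory receptor genes.

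The tryptase genes behaved differently from each other. Tpsb2 encodes the tryptase mouse mast cell protease 6. Signals of 10.04 and 9.96 in visceral and 7.32 and 7.55 in parietal mesothelium gave a difference of 2.56 ± 0.11 (SE), or 5.90-fold (adjusted p = 0.000147 from limma). For Tpsab1, which encodes the related protease 7, the values were 7.25 and 7.07 against 6.51 and 6.79. The visceral arrays were the higher ones here too, but the difference of 0.51 ± 0.13 (SE) was under the fold of 1.5 and its adjusted p was 0.0521 from limma. Without parietal replicate 2 the difference was 0.65 and passed (adjusted p = 0.0279 from limma). RefSeq lists Tpsab1 as a transcribed pseudogene on the reference assembly, which is of C57BL/6J. The labels give the background as c57bl/6 without a substrain, and C57BL/6 mice are known to lack its protein. The tryptase genes resemble each other in sequence, and whether the probe of one also binds transcripts of another was not tested.

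Mcpt1, the mucosal chymase gene, did not follow the connective tissue proteases. Its log2 signal was 5.07 and 4.78 in visceral and 5.08 and 4.93 in parietal mesothelium. The tissues overlapped, every array lay under the level of the sensory receptor genes, and the difference was -0.08 (95% interval -0.39 to 0.23, adjusted p = 0.753 from limma). The sign of this small difference turned on leaving out visceral replicate 2 (0.07). Mcpt2, the other mucosal chymase gene, had signals of 4.64 and 4.60 in visceral and 4.59 and 4.68 in parietal mesothelium, a difference of -0.02 ± 0.08 (SE, adjusted p = 0.931 from limma).

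To compare the protease types within arrays, the log2 gap between each connective tissue type gene and Mcpt1 was taken on each array. The gap of Mcpt4 was 5.88 and 5.62 on the visceral and 1.40 and 1.90 on the parietal arrays, wider by 4.10 in visceral mesothelium. For Cpa3 the gap widened by 4.71, for Tpsb2 by 2.64, for Cma1 by 1.87 and for Tpsab1 by 0.59. In each of these 5 comparisons both visceral gaps exceeded both parietal gaps. The 5 are not separate results, since all subtract the same Mcpt1 values. Each of the 5 genes by itself already had both visceral arrays above both parietal arrays, as did 28.9% of all genes. An exact two-sided permutation test over the arrays gave p = 0.333 for each, the smallest that 2 arrays against 2 can give, so it does not decide whether the protease types differed. Every Mcpt1 value lay under the level of the sensory receptor genes. Since Mcpt1 differed by only -0.08 between the tissues, the widening is close to each gene's own difference and adds little to it.

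The chymase genes lie side by side on chromosome 14, and the called genes among them were not next to each other. In RefSeq order on the GRCm38.p6 assembly the locus holds 15 protein-coding genes from Cma1 to Gzmb, of which 13 have a probe that names them alone. Only Cma1, at one end, and Mcpt4, farther along, were called, 2 of 13 against 9.6% of all genes. Mcpt1 and Mcpt2 lie between them. Apart from Cma1 and Mcpt4, every measured gene of the locus lay under the level of the sensory receptor genes on every array. The highest of them was Ctsg, at 6.25 on visceral replicate 1. Signals so low limit what these neighbours can show. Mcpt8, a basophil protease gene next to Mcpt4, differed by -0.02 ± 0.11 (SE), with signals of 5.29 and 5.17 against 5.13 and 5.36. Ctsg, encoding cathepsin G of neutrophils and some mast cells, differed by 0.22 ± 0.12 (adjusted p = 0.305 from limma). The granzyme genes Gzmb to Gzmn at the far end differed by -0.30 (Gzmg) to 0.14 (Gzmf), and none of them passed. Cma2 and Mcpt9 share their probes and were not read. On chromosome 17 the tryptase locus holds 6 genes from Prss34 to Tpsg1, of which 1, Tpsb2, was called. Its neighbour on one side is Tpsab1 and on the other Tpsg1, a membrane-anchored tryptase gene, which differed by 0.15 ± 0.08 (adjusted p = 0.324 from limma). Prss34, a protease gene of basophils and mast cells, differed by 0.36 ± 0.12 (adjusted p = 0.112 from limma).

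**Figure D2:**
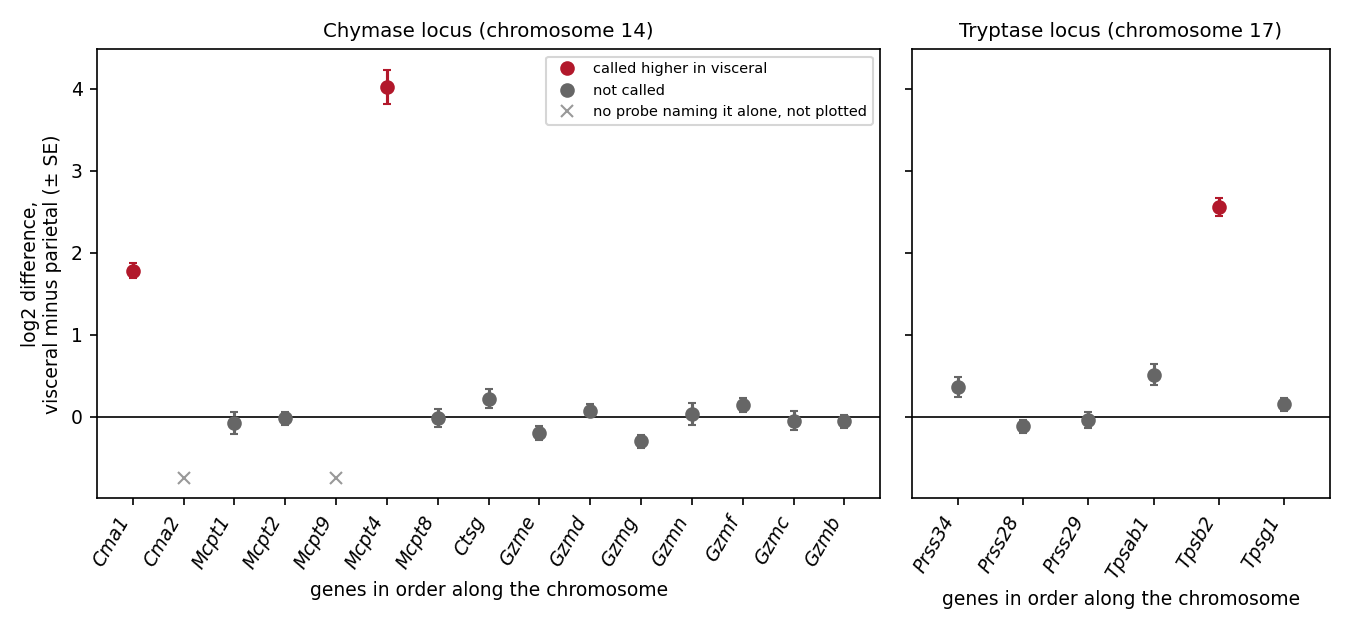
Log2 difference, visceral minus parietal mesothelium, with its standard error (y axis), of the genes of the chymase locus on chromosome 14 (left) and the tryptase locus on chromosome 17 (right), in order along the chromosome (x axis, not to scale); crosses mark genes without a probe of their own. Mcpt4 at 4.02, Cma1 at 1.78 and Tpsb2 at 2.56 stand above neighbours that lie between -0.30 and 0.51. In the chymase locus the measured neighbours were under the level of the sensory receptor genes on every array.

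The promoter windows of Mcpt4 and Mcpt1, which differed between the tissues by 4.02 and -0.08, resemble each other. The RefSeq windows on GRCm38.p6 run from 250 bases before the annotated start to 50 after it, and 8 of the 10 genes were matched to one (Tpsb2 and Tpsab1 were not). Mcpt4 and Mcpt1 were identical at 254 of 312 aligned columns (81.4%), whereas the pairs among these windows that include Cpa3 or Cma1 gave 48.8% to 52.1%. Shown 5′ to 3′ on the strand of the gene are the chymase pair and, as the gene with the largest difference, Cpa3, with GATA motifs in capitals. These were searched on either strand as AGATAA, as its variant TGATAA, as the form ending in G, AGATAG, and as the last variant, TGATAG, and they are sites of a factor family that includes Gata2. The windows are chr14:56062261-56062560 on the minus strand for Mcpt4, chr14:56017714-56018013 on the plus strand for Mcpt1 and chr3:20242132-20242431 on the minus strand for Cpa3.
Mcpt4: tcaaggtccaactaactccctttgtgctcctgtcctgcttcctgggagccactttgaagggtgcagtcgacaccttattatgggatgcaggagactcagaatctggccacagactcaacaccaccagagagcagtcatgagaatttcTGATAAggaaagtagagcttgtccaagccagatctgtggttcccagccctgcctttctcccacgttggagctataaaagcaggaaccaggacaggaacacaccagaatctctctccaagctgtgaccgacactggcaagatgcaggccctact
Mcpt1: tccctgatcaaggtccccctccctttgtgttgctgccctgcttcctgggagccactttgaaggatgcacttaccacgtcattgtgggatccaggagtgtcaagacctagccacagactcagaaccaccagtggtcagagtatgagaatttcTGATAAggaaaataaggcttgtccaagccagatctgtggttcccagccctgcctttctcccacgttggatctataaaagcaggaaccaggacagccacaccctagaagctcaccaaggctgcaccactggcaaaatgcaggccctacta
Cpa3: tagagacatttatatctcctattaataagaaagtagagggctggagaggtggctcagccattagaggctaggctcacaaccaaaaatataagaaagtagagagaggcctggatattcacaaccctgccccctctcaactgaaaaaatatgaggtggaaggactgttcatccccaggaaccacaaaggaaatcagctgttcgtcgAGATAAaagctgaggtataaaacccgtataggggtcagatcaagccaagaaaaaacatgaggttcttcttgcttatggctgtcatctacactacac
The motif TGATAA stands at -103 in Mcpt4 and at -99 in Mcpt1, counted from the start site to its first base, and AGATAA at -46 in Cpa3. A GATA motif was found for 7 of these 8 genes, all but Kit, which has 2 overlapping windows, and in 29.8% of the 32851 windows in the table, where a gene can have more than 1. Ms4a2, which was not called, holds 3. The E-box CATGTG or its palindromic form CACGTG, which the mast cell factor Mitf can bind, were found for 1 of the 8 genes, Fcer1a, and in 20.4% of all windows. Both shares are over all windows in the table without selection by assembly, whereas the windows of the 8 genes were those on GRCm38.p6. The matches describe the letters of the windows only.

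Of the receptor genes, Kit and Fcer1a were higher in visceral mesothelium and Ms4a2 was not. Kit had signals of 8.36 and 7.83 on the visceral and 6.54 and 6.6 on the parietal arrays. The groups did not overlap and differed by 1.53 ± 0.18 (SE), or 2.88-fold (adjusted p = 0.00394 from limma). Both visceral values lay above the level of the sensory receptor genes and both parietal values under it. Kit is also expressed by interstitial cells of Cajal, melanocytes and some lymphoid cells. Among 9 measured genes listed for Kit-expressing cells other than mast cells, 4 were called higher in visceral mesothelium, against 5.22% of all genes. The 4 were Etv1 (4.67), Il7r (1.26), Ano1 (0.88) and Cd34 (0.77). Not called were Gpr20 (0.07) and the melanocyte genes Dct, Tyr, Pmel and Mlana (-0.18 to 0.10). The part of such cells in the Kit signal was not tested.

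Fcer1a, the chain of the IgE receptor that binds IgE, was measured at 6.38 and 6.37 in visceral and 5.37 and 5.49 in parietal mesothelium. The arrays of a tissue nearly coincided, and the difference of 0.95 ± 0.09 (SE), or 1.93-fold, passed (adjusted p = 0.00169 from limma), although every one of these values was under the level of the sensory receptor genes. Ms4a2, which encodes the signal-amplifying beta chain of the same receptor, had 6.52 and 6.24 in visceral against 6.69 and 6.83 in parietal mesothelium. Here the parietal arrays were the higher ones, by a log2 difference of -0.38 ± 0.12 (SE) that did not pass (adjusted p = 0.106, unadjusted p = 0.0216 from limma). Leaving out the second visceral array gave -0.24 and leaving out the first gave -0.52. The visceral values of Ms4a2 were under the level of the sensory receptor genes. Both parietal values lay just above that level, which was 6.64 and 6.74 on these arrays. The third chain, Fcer1g, which macrophages and other myeloid cells share, was at 10.64 and 10.52 against 7.60 and 7.82, a difference of 2.87 ± 0.11 (SE, adjusted p = 0.000121 from limma).

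Hdc, the histidine decarboxylase that makes histamine, was at 9.36 and 9.32 in visceral and 7.48 and 7.68 in parietal mesothelium. It was higher in visceral mesothelium by 1.76 ± 0.10 (SE), or 3.38-fold (adjusted p = 0.000360 from limma), with all 4 arrays above the level of the sensory receptor genes.

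Ordered by the log2 difference, the 10 genes ran from Cpa3 through Mcpt4, Tpsb2, Cma1, Hdc, Kit, Fcer1a, Tpsab1 and Mcpt1 to Ms4a2. The 95% intervals of Cpa3 (4.23 to 5.03) and Mcpt4 (3.5 to 4.54) overlapped. That of Tpsb2 (2.29 to 2.83) was apart from both neighbours, Mcpt4 and Cma1 (1.57 to 2.00). Those of Cma1, Hdc (1.51 to 2.01) and Kit (1.09 to 1.97) overlapped, as did each remaining pair of neighbours in the order. Between genes the difference depends on how strongly each probe responds, so the order is one of measured differences and not of RNA.

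**Figure D3:**
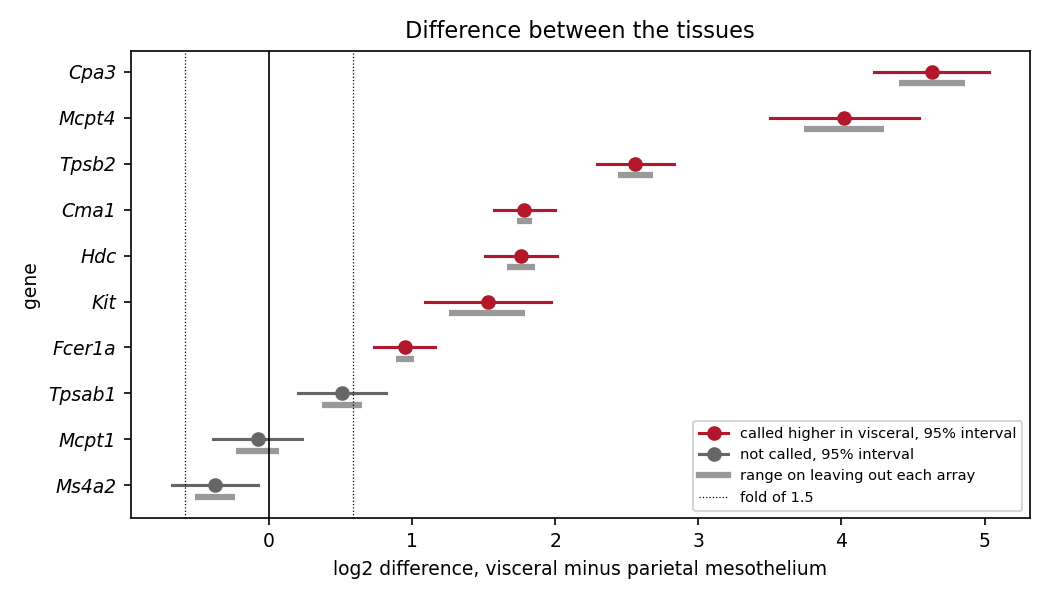
The 10 mast cell genes (y axis) by their log2 difference between the tissues (x axis, positive where visceral mesothelium was higher), with the 95% interval from limma; the grey bars give the range on leaving out each array and the dotted lines a fold of 1.5. Cpa3 at 4.63 and Mcpt4 at 4.02 lie farthest to the right, and the interval of Mcpt1 includes 0.

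The visceral arrays differed from each other in these genes. All 10 were higher on visceral replicate 1 than on replicate 2, by a median of 0.23 on the log2 scale, against 48.9% of all genes. The gap was widest for Mcpt4 (0.56), Kit (0.53) and Cpa3 (0.46), and it was 0.11 or less for Cma1, Tpsb2, Hdc and Fcer1a. On the parietal arrays 2 of the 10, Cma1 and Mcpt1, were higher on replicate 1. Neutrophil markers moved in the same way, with 9 of 10 higher on visceral replicate 1 and Ngp, a granule protein gene, at 8.47 and 7.16, whereas macrophage markers were higher there in 4 of 10. The part of neutrophils in the values of the mast cell genes was not tested. On leaving out visceral replicate 1 or 2, all 7 calls were kept.

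Likeness to Cpa3 and Kit was measured over the 4 arrays as the root mean square distance between profiles centred on their means. Nearest to Kit was Mrgprb2, the receptor of mast cells for basic secretagogues, at a distance of 0.01, with signals of 7.27 and 6.76 in visceral and 5.45 and 5.53 in parietal mesothelium. It was followed by Myl9, a smooth muscle myosin light chain gene (0.02), Mrgprx2, of the same receptor family as Mrgprb2 (0.04), and Olfml2a and Kif26b (0.07 each). Of these, Mrgprx2 was under the level of the sensory receptor genes on every array. Nearest to Cpa3 were the insulin-like growth factor binding protein gene Igfbp2 (0.18), the transcription factor gene Etv1 and the B cell chemokine gene Cxcl13 (0.20 each), Mcpt4 (0.32) and the GABA receptor subunit gene Gabra4 (0.33). With 4 arrays the profile is set mostly by the size of the difference between tissues, and genes of unlike function can share it.

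Beyond the 10 genes, 80 of 87 listed genes of the mast cell programme were measured. Of all genes, 5.22% were called in favour of visceral and 4.39% in favour of parietal mesothelium. Of the 80, 34 were called in favour of visceral and 5 in favour of parietal mesothelium while 41 did not pass. Many of them also serve macrophages, of whose 10 markers 9 were called higher in visceral mesothelium (median 1.65), led by the complement gene C1qc (2.94) and the mannose receptor gene Mrc1 (2.69). The mean log2 signal of the 10 macrophage markers was 10.55 and 10.62 on the visceral against 8.79 and 8.89 on the parietal arrays. The part of macrophages in the counts of this programme was not tested.

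Among other surface receptors of mast cells, 10 of 17 were called with an excess in visceral mesothelium, against 5.22% of all genes. An excess in parietal mesothelium was called for 0 of the 17, against 4.39%, and the median was 0.83. The receptor gene Mrgprb1, of the family of Mrgprb2, was at 8.29 and 7.95 against 5.36 and 5.55, a difference of 2.66 ± 0.14 (SE, adjusted p = 0.000291 from limma). Mrgprb2 differed by 1.53 ± 0.17 and Mrgprx2 by 1.57 ± 0.15. Mrgprx2 on every array, and Mrgprb1 and Mrgprb2 on both parietal arrays, lay under the level of the sensory receptor genes. The complement receptor genes C3ar1 (3.30) and C5ar1 (2.33) and the IgG receptor genes Fcgr2b (2.55) and Fcgr3 (1.5), which macrophages share, were called as well. Mrgprb8 and Mrgprx1 of the same receptor family as Mrgprb2, named after their values were seen, differed by 0.06 and -0.05 and did not pass.

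For 19 genes of signaling from Kit and the IgE receptor the median was 0.96. Of these, 11 were called in favour of visceral and 0 in favour of parietal mesothelium, against 5.22% and 4.39% of all genes. Besides Fcer1g the 11 included the adaptor genes Lcp2 (1.88) and Lat2 (1.01), the kinase gene Fyn (1.38) and the lipid phosphatase gene Inpp5d (1.51). Kitl, the ligand of Kit, was at 10.39 and 10.10 on the visceral arrays and at a mean of 10.02 on the parietal arrays. Its arrays did not overlap but its difference of 0.23 ± 0.12 (SE) did not pass (adjusted p = 0.297 from limma). Rgs13, a regulator of G protein signaling of mast and B cells, was higher by 1.09 ± 0.18 (adjusted p = 0.0139 from limma). Its signal was under the level of the sensory receptor genes on every array. Kitl and Rgs13 were named after their values were seen.

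For 19 genes of granule assembly and mediators the median was 0.72. Of these, 10 were called in favour of visceral and 3 in favour of parietal mesothelium, against 5.22% and 4.39% of all genes. Serglycin, Srgn, the core of the granule proteoglycan, was at 12.26 and 12.19 against 9.61 and 10.21 (difference 2.31 ± 0.20 SE, adjusted p = 0.00132 from limma), and Ctsc, the dipeptidyl peptidase that activates granule proteases, differed by 1.43. The leukotriene pathway genes Alox5ap (2.20) and Alox5 (1.95) and the amine oxidase gene Maob (2.79) were called as well. Slc18a2, the transporter that loads histamine into granules, was higher by 1.38 ± 0.13 and Ndst2, which sulfates granule heparin, by 0.82 ± 0.08. Both parietal values of Slc18a2, 5.87 and 6.21, were under the level of the sensory receptor genes. The 3 genes called higher in parietal mesothelium were the protease inhibitor gene Serpinb1a (-1.35) and the vesicle traffic genes Vamp8 (-0.80) and Rab27b (-0.74), which epithelial cells also express. Slc18a2, Ndst2 and these 3 were named after their values were seen.

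For 11 transcription factors of mast cells the median was 0.02. Of these, 3 were called in favour of visceral and 2 in favour of parietal mesothelium, against 5.22% and 4.39% of all genes. Gata2, needed for the mast cell lineage, was at 7.83 and 7.98 against 7.35 and 7.29, higher by 0.59 ± 0.09 (SE, adjusted p = 0.0117 from limma). The myeloid factor gene Spi1 (1.94) and Runx1 (0.63) were also called higher in visceral mesothelium, and Bhlhe40 (-0.70) and Zfpm1 (-0.77) higher in parietal mesothelium. Mitf, named after its value was seen, differed by -0.07 ± 0.08 and did not pass. Of 14 other proteases of the chymase and tryptase loci, described above, 0 were called by limma after adjustment. Gzmg, Prss34 and Gzme had an unadjusted p under 0.05 from limma. Of the 14, 3 lay above the level of the sensory receptor genes on both visceral arrays and 2 on both parietal arrays.

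**Figure D4:**
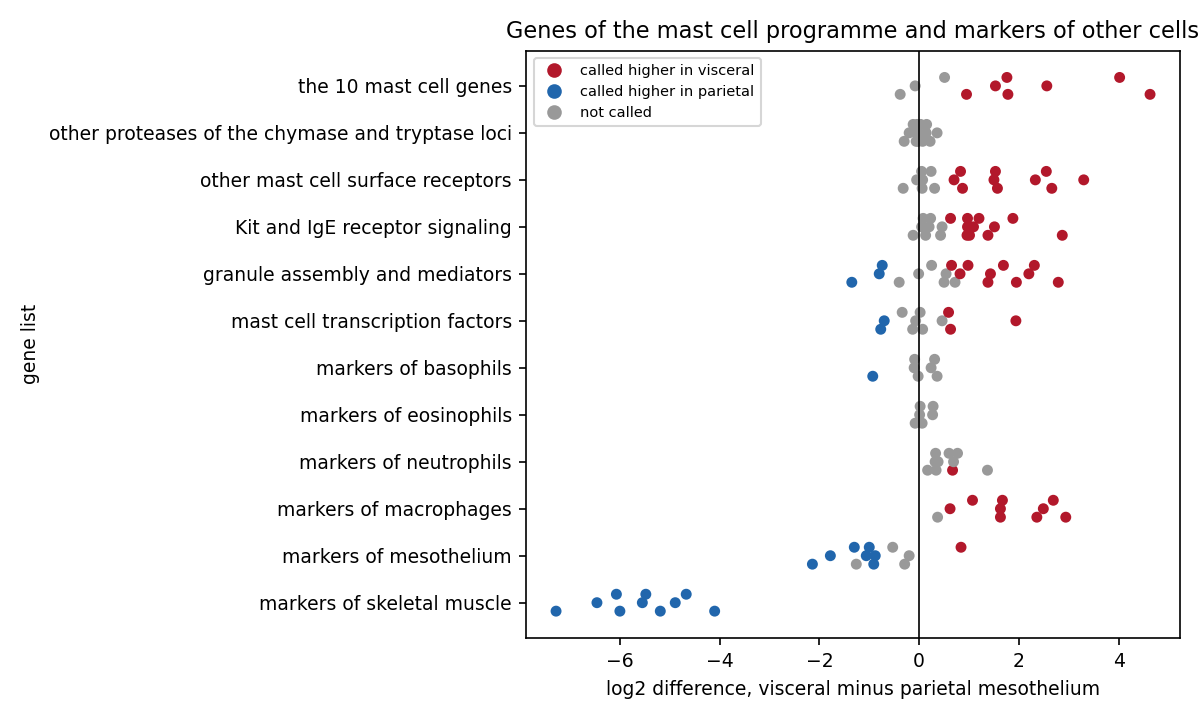
Genes of each list (y axis) by their log2 difference between visceral and parietal mesothelium (x axis, positive where visceral was higher). Points stand for genes, in red for calls toward visceral, in blue for calls toward parietal mesothelium and in grey for the rest. Of the 10 mast cell genes 7 are red, of the other proteases of their loci none, and of the macrophage markers 9 of 10.

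Markers of granulocytes, some of which mast cells share, were mostly not called. Of 7 basophil markers 0 were called higher in visceral mesothelium by limma, although Prss34, Cd200r3 (0.31) and Il3ra (0.24) had an unadjusted p under 0.05, and 1, the integrin gene Itga2 (-0.93), which epithelial cells express too, was called higher in parietal mesothelium. Of 6 eosinophil markers 0 were called, with Ccr3 (0.27) and Il5ra (0.28) at an unadjusted p under 0.05 from limma and the peroxidase gene Epx at 0.01. Of 10 neutrophil markers 1, S100a9 (0.67), was called higher in visceral mesothelium, and the median was 0.49. A further 6 had an unadjusted p under 0.05 from limma without passing, Ngp (1.37), Ltf (0.77), S100a8 (0.69), Retnlg (0.60), Elane (0.34) and Ly6g (0.33). For 9 of the 10 both visceral arrays lay above both parietal arrays, against 28.9% of all genes. The level of the sensory receptor genes was passed on both visceral arrays by 3 of the 7 basophil, 1 of the 6 eosinophil and 4 of the 10 neutrophil markers, and on both parietal arrays by 2, 1 and 2 of them. Mcpt8 of basophils, Epx of eosinophils and Ly6g of neutrophils were under it on every array.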

How the data were processed

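Total RNA of 4 mesothelium samples was hybridized to Affymetrix Mouse Gene 1.0 ST arrays. The deposited values are log2 signals that the authors made by RMA (background correction, quantile normalization and summary per probe set) in Partek 6.6. The array library version is not given in the sources used here.

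Of 35556 probes, 21789 carry 1 gene symbol, 1621 several and 12146 none in the platform annotation. Of those with 1 symbol, 21698 were found by gene identifier in the RefSeq table of GRCm38.p6, with 0 symbols changed. The probe with the highest mean stood for each of 19938 genes. limma 3.58.1 in R 4.3.3 was fitted to all genes and 4 arrays without a block, with p-values adjusted by the Benjamini-Hochberg method over all genes, and the code was tested on simulated data. Promoter windows came from RefSeq and were aligned globally with Biopython 1.88. The members and lists were chosen with earlier results of these data known.

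Named genes are the 10 members, from each programme list up to 5 called genes in order of adjusted p and a few mast cell or basophil genes set with them, the genes of both loci, leading markers and the 5 nearest profiles of Cpa3 and Kit. Alternatives tried were the one-way ANOVA of the methods (called the methods' t-test) before and after adjustment, changed thresholds, priors, normalizations, filters and probe choices, the replicate number as a block, and the fit without each array in turn.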

Additional observations from a re-analysis of the deposited data

How the results depend on the processing

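The 7 calls among the 10 mast cell genes were all kept under 13 of 16 alternatives, including the quantile, median and cyclic loess normalizations. The exceptions were the methods' t-test after adjustment, a fold of at least 2 and genes above the median signal. The t-test after adjustment called 0 of the 10 (7 without adjustment). A fold of at least 2 lost Fcer1a (6 called). Among genes above the median signal only 4 of the 10 were tested and all 4 were called. The share of all genes called is not given for the alternatives, so these counts have no rate beside them. Of the 80 programme genes, 34 higher in visceral mesothelium became 0 under the methods' t-test after adjustment, 22 at a fold of at least 2 and 21 among the 40 above the median signal. The 5 higher in parietal mesothelium became 0 under the methods' t-test after adjustment and 3 without adjustment, 1 at a fold of at least 2, and 3 with all probes in the fit. Leaving out each array gave 7 to 8 members and 30 to 36 programme genes higher in visceral mesothelium, and 0 members and 3 to 5 programme genes higher in parietal mesothelium. The difference of Mcpt1, -0.08, ran from -0.23 to 0.07 on leaving out each array and was above 0 without visceral replicate 2. Against Mcpt1, the gap of Cpa3 widened by 4.59 to 4.83, of Cma1 by 1.77 to 1.96, of Mcpt4 by 3.85 to 4.35, of Tpsb2 by 2.45 to 2.84 and of Tpsab1 by 0.38 to 0.80 on leaving out each array. With the replicate number as a block, 7 members were called, with Cpa3 at 4.63. The arrays share only a number, and the correlation over genes of same-numbered arrays' deviations was 0.36. Signals near those of the sensory receptor genes, as for Fcer1a, Ms4a2, Mcpt1, Rgs13 and Mrgprx2, limit what these arrays can show. The causes of these changes were not tested.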
